A study of Mus musculus with 4 samples.

Results

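The alternative segments of 5 synaptic adhesion genes, *Nrxn2*, *Nrxn3*, *Nlgn1*, *Nlgn2* and *Nlgn3*, were followed in brains with and without the splicing regulator PTBP2. An exon trio is a middle exon with its upstream and downstream neighbors. Trios were given to a gene when chromosome, strand, middle exon length and both intron lengths matched a GENCODE mouse transcript of release M21. This matched 93 of the 228333 deposited trios to the 5 genes, and 85 of them had at least 20 junction reads in both libraries of a stage. A further 7 trios, 4 of them alternative splice sites, were named by an exon they share, and all 100 trios describe 67 middle exons or alternative parts of exons. Of these, 64 had enough reads at a stage: 23 in *Nrxn2*, 22 in *Nrxn3*, 7 in *Nlgn1* and 6 each in *Nlgn2* and *Nlgn3*.

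Polyadenylated RNA was sequenced from mice of a mixed C56Bl/6:129S2 background (spelled as in the labels) in 4 groups of 1 library each. At embryonic day 18 (E18), whole brain of *Ptbp2*-NesKO embryos, in which a floxed *Ptbp2* allele was deleted by a Cre transgene under the nestin promoter (active in neural progenitors), was compared with wild-type littermates, and each library held 2 brains. At postnatal day 1 (P1), cortex of the *Ptbp2*-EmxKO was compared with littermate cortex labelled wild type. Cre was driven there by the Emx1 promoter (active in the dorsal forebrain lineage). The paper gives no number of animals for the P1 libraries. The E18 libraries were not strand specific and the P1 libraries were, so age, dissected tissue and library kind cannot be told apart between the stages. With 1 library a group the spread between animals is unknown: every test below compares the reads of 2 libraries, not 2 genotypes, and every interval covers counting error only.

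Neurexins sit in the presynaptic membrane and bind neuroligins and other partners across the synaptic cleft. Each neurexin gene makes a long alpha form and a short beta form from separate promoters, and small alternative segments (AS1 to AS6) along the extracellular part change which partners are bound. Neuroligins are postsynaptic, and short inserts at site A and, in NLGN1, at site B of their cholinesterase-like domain tune the choice of neurexin. NLGN1 is known from excitatory synapses, NLGN2 from inhibitory synapses and NLGN3 from both.

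The neuroligin segments are shown first, because the largest difference supported by junction reads lay in one of them. The sequences are from GENCODE transcripts on GRCm38, in the 5′ to 3′ direction, with the alternative segment in capitals and 10 bases of each neighboring exon in lower case.
Nlgn3 A1: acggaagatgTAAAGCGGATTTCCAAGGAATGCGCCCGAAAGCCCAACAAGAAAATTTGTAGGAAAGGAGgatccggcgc
Nlgn3 A2: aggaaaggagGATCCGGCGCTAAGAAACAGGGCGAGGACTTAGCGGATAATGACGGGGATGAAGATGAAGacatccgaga
Nlgn1 A: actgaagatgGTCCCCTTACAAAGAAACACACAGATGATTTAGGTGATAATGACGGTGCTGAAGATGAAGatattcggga
Nlgn2 A: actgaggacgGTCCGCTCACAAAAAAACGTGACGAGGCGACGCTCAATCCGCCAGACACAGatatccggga
Nlgn1 B: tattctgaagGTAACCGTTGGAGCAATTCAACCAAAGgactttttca
*Nlgn3* has 2 exons of 60 nt at site A, called A1 and A2 here, and the one that resembles the *Nlgn1* site A exon is A2. Without gaps, A2 and the *Nlgn1* exon have 43 of 60 bases in common (71.7%), whereas A1 and A2 have 19 of 60 (31.7%). All 5 segments have a length that is a multiple of 3 and lie in coding sequence, so each adds residues without shifting the reading frame: 20 for each 60-nt exon, 17 for *Nlgn2* A and 9 for *Nlgn1* B.

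The neurexin segments are shown for the same purpose.
Nrxn2 AS2: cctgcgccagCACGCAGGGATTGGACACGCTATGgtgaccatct
Nrxn2 AS3: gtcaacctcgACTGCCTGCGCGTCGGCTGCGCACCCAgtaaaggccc
Nrxn3 AS3: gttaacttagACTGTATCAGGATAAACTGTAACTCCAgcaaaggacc
Nrxn3 AS6: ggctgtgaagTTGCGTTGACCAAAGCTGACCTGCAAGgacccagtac
Nrxn3 AS4: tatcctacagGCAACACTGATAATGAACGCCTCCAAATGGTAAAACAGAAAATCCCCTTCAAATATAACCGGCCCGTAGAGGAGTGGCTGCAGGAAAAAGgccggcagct
The 27-nt AS3 exons of *Nrxn2* and *Nrxn3* have 13 of 27 bases in common (48.1%). AS4 is the segment that changes binding to neuroligins, LRRTM proteins and cerebellins. These segments encode 8 residues (AS2), 9 residues (AS3 and AS6) or 30 residues (AS4).

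The targeted exon and general makeup of the libraries were as follows. *Ptbp2* exon 4 (mm9 chr3:119455862-119456034, 173 nt) was joined past in 100% of its junction reads in the NesKO library, against 0.225% in the E18 control. At P1 the EmxKO cortex had 82.6% skipping. The cortex labelled wild type had 31.5% (604 skipping reads; Wilson interval, 29.5 to 33.7), which goes against its label in part. It is therefore called the P1 library labelled wild type, or the P1 control. Every P1 difference and every difference between the controls rests on it, and with 1 library a group none could be computed without it. Total junction reads, each distinct junction taken once, were 48367448 and 50188724 at E18 and 83110007 and 83394001 at P1. Summed markers of neurons were 1883 and 2194 RPM (junction reads scaled to a library total of 1000000) in the E18 NesKO and its control, and 2890 and 2990 RPM in the P1 EmxKO and its control, but single markers differed more (given with the gene levels). The 3 listed of 4 microglial markers summed to more in both knockout libraries, at 77.4 against 56.7 and 46.2 against 30.2 RPM. *Csf1r* made up most of each sum, at 72.5 against 52.7 and 44.5 against 29.2 RPM. *Aif1* was also higher in both knockouts, at 3.95 against 2.87 and 1.40 against 0.815 RPM. *P2ry12* was lower in the NesKO, at 0.910 against 1.16 RPM, and level at P1, at 0.253 against 0.252. The part of these markers in the results was not tested. Listed hindbrain markers were at 0 in both P1 cortex libraries.

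The percent spliced in (PSI) is the deposited SpliceTrap inclusion ratio in percent, and a second value was taken from the junction reads, as the mean of both inclusion junctions over that mean plus the skipping junction. By the deposited ratio, 4 of 63 tested neurexin and neuroligin exons differed by at least 10 points between NesKO and control at E18, and all 4 were higher in the knockout. The share over all 132260 tested exons was 2.12%. At P1, 2 of 64 differed by 10 points, both higher in the EmxKO, beside 1.39% of all exons. Only 1 of the 4 at E18, the *Nlgn1* 77-nt exon, and 1 of the 2 at P1, *Nlgn3* A2, passed 10 points by junction reads as well. *Nlgn3* A2 at E18 came to 8.81 points by that measure. The rest were the 18-nt exon of *Nrxn2* and the 204-nt exon of *Nrxn3* at E18, and the 1390-nt exon of *Nrxn3* at P1. They had no skipping read in either library of their stage in the trio used. Another trio of the 18-nt exon, with a farther downstream exon, had 3 and 1 skipping reads at E18. With a Benjamini-Hochberg adjusted p below 0.05 required too (Fisher's exact test over all exons), 0 remained at E18 and 1 at P1. That call rate over all exons was 0.148% at E18 and 0.191% at P1. With differences of any size counted, 4 of 63 members had an unadjusted p below 0.05 at E18, beside 2068 of all 132260 exons. At P1 5 of 64 members did, beside 3214 of all 131616 exons. Among exons that the database labels as cassettes, 0 of 6 members passed 10 points at E18, where 10.7% of all cassettes did, and 0 of 7 at P1, where 9.27% did. *Nlgn3* A2 carries the label of a constitutive exon there.

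Of the tested exons, 17 were alternative, either labelled so in the SpliceTrap database or with a junction-read PSI under 95 in a library. The other 47 met neither criterion in the trio used, which does not count reads past several exons at once.

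**Figure D1:**
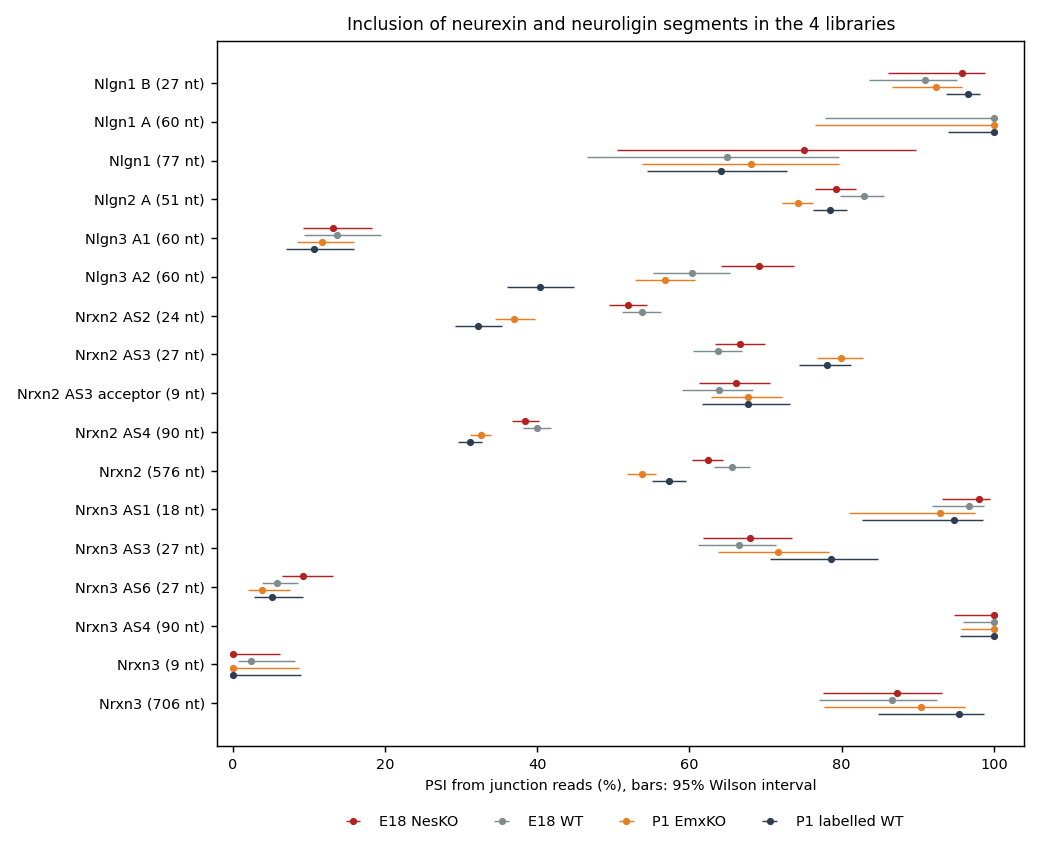
PSI from junction reads (horizontal axis, percent) of the 17 alternative exons in each of the 4 libraries, as points with 95% Wilson intervals, leaving out libraries with fewer than 20 junction reads. Knockout and control points of a stage lie close together for most segments, and *Nlgn3* A2 at P1 stands apart, with intervals of 52.9 to 60.7 in the EmxKO and 36.1 to 44.9 in the P1 library labelled wild type.

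*Nlgn3* A2 was the member exon with the clearest knockout difference. It lies at mm9 chrX:98502414-98502473 on the plus strand and is exon 4 of an 8-exon transcript. Its deposited PSI was 69.6 in the NesKO, 59.1 in the E18 wild type, 59.4 in the EmxKO and 43.7 in the P1 library labelled wild type. The knockout library was thus the higher one at both stages, by 10.5 points at E18 and 15.7 points at P1. By junction reads the values were 69.1, 60.3, 56.8 and 40.4. The difference was 8.81 points at E18 (95% Newcombe interval, 1.79 to 15.7) and 16.4 points at P1 (10.4 to 22.2). At P1 the reads differed between the libraries with an adjusted p of 5.76e-05 (Fisher's exact test), and at E18 the unadjusted p was 0.0151 and the adjusted p was 1. The effect at P1 was not shown to differ from that at E18 (Wald chi-square test of the log odds ratios, unadjusted p = 0.167). With the upstream inclusion junction alone the differences were 9.73 and 14.1 points at E18 and P1, and with the downstream one 7.90 and 19.2 points, so the knockout library was higher by either junction.

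The reads that leave the exon before site A give the same segment as a choice of 3 targets. Reads that passed over both A exons were 110 of 411 in the NesKO (26.8%) and 141 of 393 in the E18 wild type (35.9%). At P1 they were 264 of 697 in the EmxKO (37.9%) and 283 of 546 in the library labelled wild type (51.8%). The form of *Nlgn3* without a site A insert was therefore less common in each knockout library than in its control. Reads to A2 made up 60.8% and 53.2% at E18 and 54.4% and 42.1% at P1, in the same order. Reads to A1 made up 12.4% and 10.9% at E18 and 7.75% and 6.04% at P1. Where A1 was used, A2 nearly always followed, with 0, 2, 0 and 0 reads that skipped A2 after A1 in the 4 libraries.

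**Figure D2:**
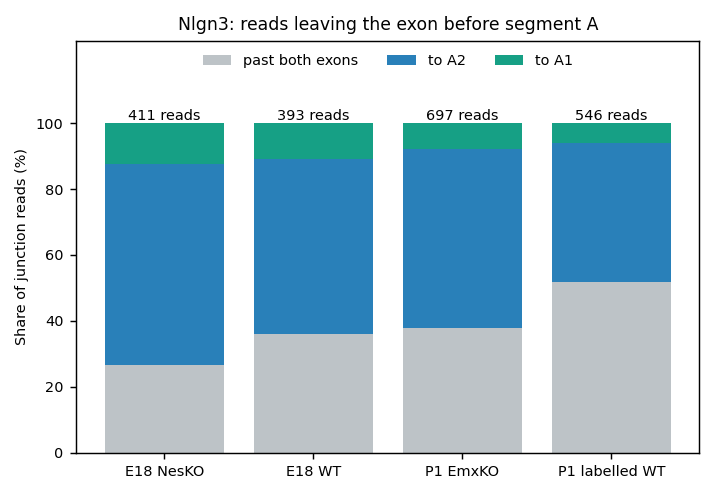
Stacked bars show the share of junction reads (vertical axis, percent) that join the exon before *Nlgn3* site A to A1, to A2 or to the exon past both, in each library, with the number of reads above each bar. The share past both is smaller in the knockout library at each stage, 26.8% against 35.9% at E18 and 37.9% against 51.8% at P1.

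A1 itself (mm9 chrX:98498411-98498470) was a minor exon in all 4 libraries. Its deposited PSI was 12.6 and 11.3 in the NesKO and control at E18 and 10.4 and 8.8 in the EmxKO and control at P1. From the upstream junction alone the PSI was 21.9, 21.7, 17.6 and 16.8, and from the downstream one 2.15, 3.73, 4.89 and 3.53. The downstream junction, from A1 to A2, had 4, 6, 13 and 6 reads in this trio and 32, 26, 46 and 27 in another. The level of A1 therefore depends on the junction and the trio. The junction-read difference was -0.52 points at E18 (interval, -7.51 to 6.24) and 1.07 points at P1 (-5.13 to 6.68). These intervals leave room for differences of several points in either direction.

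*Nlgn2* A, the single site A exon of the inhibitory-synapse neuroligin, was included in most transcripts. The 51-nt exon lies at mm9 chr11:69644065-69644115 on the minus strand. Its PSI was 87.2 in the NesKO, 88.8 in the E18 wild type, 81.2 in the EmxKO and 85 in the P1 library labelled wild type. The knockout library had the lower value at both stages. By junction reads the difference was -3.61 points at E18 (interval, -7.54 to 0.409) and -4.24 points at P1 (-7.26 to -1.18). Neither passed adjustment by Fisher's exact test (adjusted p = 1 and 0.700). The other trios of this exon, which differ in the upstream neighbor, gave differences of -2.8 and -2.1 at E18 and -4.3 and -4.2 at P1.

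*Nlgn1* was covered by few reads, which limits what its exons can show. No read skipped the 60-nt site A exon (mm9 chr3:25819100-25819159) in any library. Its upstream and downstream neighbors were joined to it by 15 reads in the NesKO, 27 in the E18 wild type, 25 in the EmxKO and 121 in the P1 library labelled wild type. The junction that skips it is listed at 0 in every library, one of 6 such among the 18 distinct *Nlgn1* junctions, so the deposited PSI of 99.9 in all 4 libraries gives no inclusion level that could be compared.

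*Nlgn1* B (mm9 chr3:25338787-25338813, minus strand) is a 27-nt extension of an exon at its 3′ end and was used in most transcripts. Its PSI was 94.9 in the NesKO, 90.2 in the E18 wild type, 92.7 in the EmxKO and 96.3 in the P1 library labelled wild type. The knockout value was the higher at E18 and the lower at P1, and both intervals of the junction-read difference include 0 (-5.76 to 12.8 and -10.2 to 0.277). The junction that leaves out B had 2, 9, 10 and 9 reads in the trio used, in the same order of libraries. Another trio lists it at 5, 18, 18 and 34 reads, so the level of B and the size of its differences depend on the trio. The 77-nt exon of *Nlgn1* holds no coding sequence and lies near the 5′ end of the transcript (mm9 chr3:26083657-26083733). Its PSI was 79.5 and 67.7 at E18 and 75.3 and 72.7 at P1, in the NesKO, its control, the EmxKO and its control. The E18 difference of 11.8 points rested on 4 and 10 skipping reads, and its junction-read interval ran from -18.5 to 33.6 points.

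**Figure D3:**
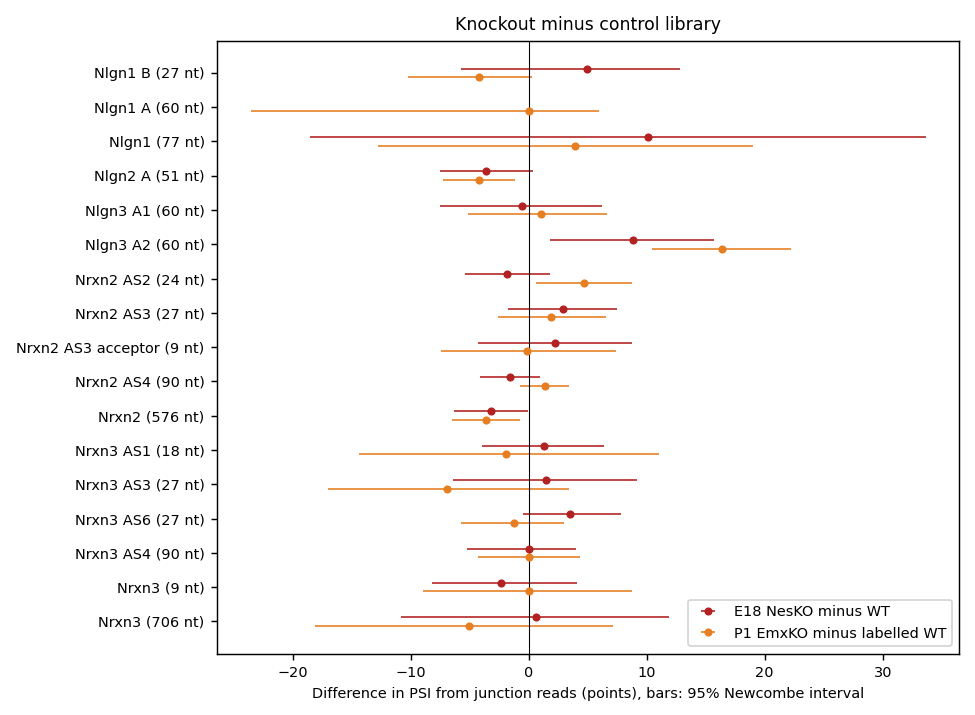
Difference in junction-read PSI between knockout and control library (horizontal axis, points) for the 17 alternative exons, at E18 and at P1, with 95% Newcombe intervals. The interval of *Nlgn3* A2 lies above 0 at both stages (1.79 to 15.7 and 10.4 to 22.2), and most other intervals include 0.

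Among the neurexin segments, no difference of 10 points between knockout and control by the deposited ratio had skipping reads in the trio used. *Nrxn2* has 3 small exons at AS1, of 18, 30 and 72 nt, and reads that leave the 18-nt exon can pass over both others, which the trios do not count as skipping of either. Such reads were 44 of 81 in the NesKO (54.3%; Wilson interval, 43.5 to 64.7), 54 of 84 in its control (64.3%; 53.6 to 73.7), 87 of 219 in the EmxKO (39.7%; 33.5 to 46.3) and 72 of 164 in the P1 control (43.9%; 36.5 to 51.6). Among reads leaving the 18-nt exon, the 30- and 72-nt exons were thus often passed over together, and the intervals of knockout and control overlap at both stages. Coverage was uneven there: the 30-nt exon was joined to the 72-nt exon by 26 to 337 reads, and the 72-nt exon to the next by 876 to 3363. Into that next exon, 44, 54, 87 and 72 reads came from the 18-nt exon and 2245, 3363, 1470 and 876 from the 72-nt exon. How often both were left out therefore depends on the side counted, and no level is given.

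AS2 of *Nrxn2* (mm9 chr19:6463824-6463847) had a PSI of 64.0 in the NesKO, 64.4 in the E18 wild type, 47.4 in the EmxKO and 42.6 in the P1 library labelled wild type. The junction-read difference was -1.81 points at E18 (interval, -5.39 to 1.78) and 4.74 points at P1 (0.657 to 8.75, adjusted p = 1 by Fisher's exact test). The junctions of AS2 were unevenly covered, with 493 to 1521 reads on the upstream and 73 to 103 on the downstream one, and this PSI averages both. From the upstream junction alone the PSI was 67.0, 68.6, 51.2 and 45.4, and from the downstream one 11.4, 11.7, 11.1 and 10.9, in the NesKO, its control, the EmxKO and its control. The lower value at P1 was therefore seen with the upstream junction and not with the downstream one, and no order of the stages is given.

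*Nrxn2* AS3, at mm9 chr19:6488784-6488810, was included in most transcripts by the deposited ratio. Its PSI was 75.5 and 73.3 in the NesKO and control at E18 and 84.8 and 82.7 in the EmxKO and control at P1. The junction-read differences of 2.90 points at E18 (interval, -1.74 to 7.51) and 1.91 points at P1 (-2.63 to 6.52) include 0. From the upstream junction alone the PSI was 77.8, 75.3, 87.5 and 86.6, in the NesKO, its control, the EmxKO and its control. The downstream junction gave 33.4, 31.8, 48.3 and 39.5, so the level depends on the junction. Directly after AS3, the next exon can start 9 nt earlier (mm9 chr19:6490058-6490066), which adds 3 residues. This acceptor had a PSI of 64.8, 62.6, 61.8 and 62.3 in the NesKO, E18 wild type, EmxKO and P1 library labelled wild type. The earlier start was joined to AS3 by 265, 263, 257 and 168 reads, which the downstream junction of AS3 above does not count. The later start had 136, 149, 123 and 80 reads from AS3 in this trio and 303, 338, 157 and 96 in another. The level of the acceptor therefore depends on the trio, and no order of the stages is given for it.

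*Nrxn2* AS4 was the most deeply covered of the segments, with 1709 to 3182 skipping reads a library. Its PSI was 29.3 in the NesKO, 30.8 in the E18 wild type, 30.2 in the EmxKO and 28.8 in the P1 library labelled wild type. By this ratio most *Nrxn2* transcripts lacked the 30-residue insert in all 4 libraries. The junction-read difference between knockout and control was -1.55 points at E18 (interval, -4.09 to 0.987) and 1.37 points at P1 (-0.695 to 3.42). At the 3′ end of *Nrxn2*, an acceptor that lengthens the last exon by 576 nt (mm9 chr19:6531268-6531843) had a PSI of 62.3, 59.4, 68.9 and 73.2. By junction reads it was 62.4, 65.6, 53.7 and 57.3, in the same order of libraries. The 2 measures gave the stages in opposite orders, and neither differed between knockout and control by 10 points.

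In *Nrxn3*, AS3 (mm9 chr12:90592897-90592923) resembled that of *Nrxn2* in level by the deposited ratio. Its PSI was 78.0 and 77.1 at E18 and 81.4 and 86.6 at P1 in knockout and control. From the upstream junction alone it was 73.1, 71.8, 79.2 and 85.4. The downstream junction gave 60.3, 58.6, 55.4 and 59.7, against 33.4, 31.8, 48.3 and 39.5 for *Nrxn2*, so the resemblance depends on the junction. The junction-read difference was 1.46 points at E18 (interval, -6.42 to 9.15) and -6.95 points at P1 (-17.0 to 3.46). The 27-nt AS6 exon (mm9 chr12:90756350-90756376) was mostly skipped. Its PSI was 14.7 in the NesKO, 9.4 in the E18 wild type, 6.0 in the EmxKO and 8.5 in the P1 library labelled wild type, and both junction-read intervals of the difference include 0 (-0.453 to 7.86 and -5.72 to 3.03). The 18-nt AS1 exon (mm9 chr12:90070997-90071014) was included at 99.1, 98.2, 96.4 and 98.0 by the deposited ratio. Its upstream junction had 186, 224, 74 and 72 reads and its downstream one 14, 11, 4 and 0, beside 2, 4, 3 and 2 skipping reads. From the downstream junction alone the PSI was 87.5, 73.3, 57.1 and 0. Another trio lists that junction at 48, 66, 19 and 18 reads, so the level depends on the junction and the trio.

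AS4 of *Nrxn3* (mm9 chr12:91437587-91437676) could not be measured. It is listed at 99.9 in every library, with 0 reads on the junction that skips it. Only 9 to 18 reads joined the upstream exon to AS4, against 130 to 164 that joined AS4 to the downstream exon. Of 60 distinct *Nrxn3* junctions, 20 are listed at 0 in every library. As an alternative chosen after these values were seen, reads from AS4 into the downstream exon were divided by the reads out of that exon. This ratio was 0.956 in the NesKO, 0.710 in the E18 wild type, 0.970 in the EmxKO and 0.950 in the P1 library labelled wild type. The E18 wild type was the lowest, and the ratio has no replicate check. Near the AS5 region, a 9-nt donor extension had a PSI of 22.9, 24.9, 22.0 and 17.6 and a 706-nt exon one of 26.9, 24.9, 28.2 and 30.1. For the 706-nt exon the junction reads gave 87.2, 86.6, 90.4 and 95.4, far above the deposited ratio, so its level depends on the measure. For the 9-nt donor they gave 0, 2.35, 0 and 0 in the trio used. Another trio lists the same junction of the longer donor at 29, 51, 15 and 11 reads. The shorter donor had 65, 100, 41 and 40 reads to the same exon. The low junction-read value of the 9-nt donor therefore depends on the trio.

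The control libraries of the stages were compared as well, with the limit that the P1 one goes against its label in part. By the deposited ratio, 8 of 64 differed by at least 10 points, 5 higher in the P1 control and 3 higher in the E18 control, beside 3.85% of all 129131 exons tested. Of these, 5, in *Nlgn1*, *Nrxn2* and *Nrxn3*, had no skipping read in either control in the trio used. In other trios, the *Nlgn1* 153-nt exon had 1 and 5 such reads and the *Nrxn2* 18-nt exon 1 and 2. The others were *Nlgn3* A2, *Nrxn2* AS2 and the 576-nt acceptor, the 3 that passed the adjusted p as well (0.864% of all exons). Of cassette-labelled members 1 of 7 passed 10 points, beside 20.5% of all cassettes. *Nlgn3* A2 was lower at P1, with -15.4 points by the deposited ratio, and its junction-read difference was -19.9 points (interval, -26.5 to -13.1, adjusted p = 2.22e-06 by Fisher's exact test). It was lower by either inclusion junction alone, by -14.9 and -25.7 points. *Nrxn2* AS2 had -21.8 points by the ratio and -21.4 points by junction reads (-25.4 to -17.4, adjusted p = 4.23e-21 by Fisher's exact test), but -0.75 points by the downstream junction alone. For A2 the P1 EmxKO, at 59.4, lay next to the E18 wild type, at 59.1.

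*Nrxn2* AS3 was 14.3 points higher at P1 by junction reads (interval, 9.41 to 18.9, adjusted p = 2.38e-06, Fisher's exact test), and 9.4 points higher by the deposited ratio, just under the 10-point limit. By the upstream and downstream junctions alone it was 11.2 and 7.67 points higher. *Nrxn2* AS4 was -8.79 points by junction reads (-11.2 to -6.40) and -2.0 by the ratio, and its junctions gave -2.10 points upstream and -17.1 downstream. The 576-nt acceptor was 13.8 points higher at P1 by the ratio and -8.29 points by junction reads, so no direction is given for it.

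Alpha and beta neurexins differ in their first exons and join at a shared 182-nt exon, which allowed their transcripts to be counted by the junction into it. For *Nrxn2*, the 697-nt beta first exon (mm9 chr19:6497835-6498531) gave 1376 of the reads in the NesKO and 1522 in the E18 wild type, and the alpha exon gave 4042 and 4317. This was a beta share of 25.4% for the NesKO (Wilson interval, 24.3 to 26.6) and of 26.1% for its control (25 to 27.2). At P1 beta gave 2766 and 2077 reads and alpha 2201 and 1773, a beta share of 55.7% for the EmxKO (54.3 to 57.1) and 53.9% for its control (52.4 to 55.5). Knockout and control did not differ past the adjusted threshold at either stage (Fisher's exact test over 6 comparisons, adjusted p = 0.637 at E18 and 0.211 at P1).

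The *Nrxn2* share depended on the alpha junction it was set against. The junction one step upstream, into the 120-nt alpha exon, had 987, 1081, 2065 and 1490 reads in the NesKO, its control, the EmxKO and its control, far fewer at E18 than the 4042 and 4317 above. Against it the beta share was 58.2%, 58.5%, 57.3% and 58.2%, and the intervals of all 4 libraries overlapped. Against the next alpha junctions upstream it was 42.3%, 41.1%, 52.0% and 52.3%, and then 38.6%, 40.4%, 57.9% and 57.1%. No order of the stages is therefore given for *Nrxn2*. Over these 4 junctions, knockout and control differed by -1.86 to 1.74 points at either stage.

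For *Nrxn3*, the 1158-nt beta first exon (mm9 chr12:91050923-91052080) gave 57 and 77 reads at E18 and 4 and 4 reads at P1, against 173 and 212 alpha reads at E18 and 180 and 199 at P1. The beta share was 24.8% in the NesKO, 26.6% in the E18 wild type, 2.17% in the EmxKO and 1.97% in the P1 library labelled wild type. Between the controls it changed by -24.7 points at P1 (adjusted p = 5.59e-15 by Fisher's exact test). Against the 3 alpha junctions upstream the share was 15.5% to 17.4% in the E18 libraries and 1.75% to 2.52% in the P1 libraries, so the lower share at P1 was found with each, at a smaller size. Reads of either strand are counted in the E18 libraries.

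**Figure D4:**
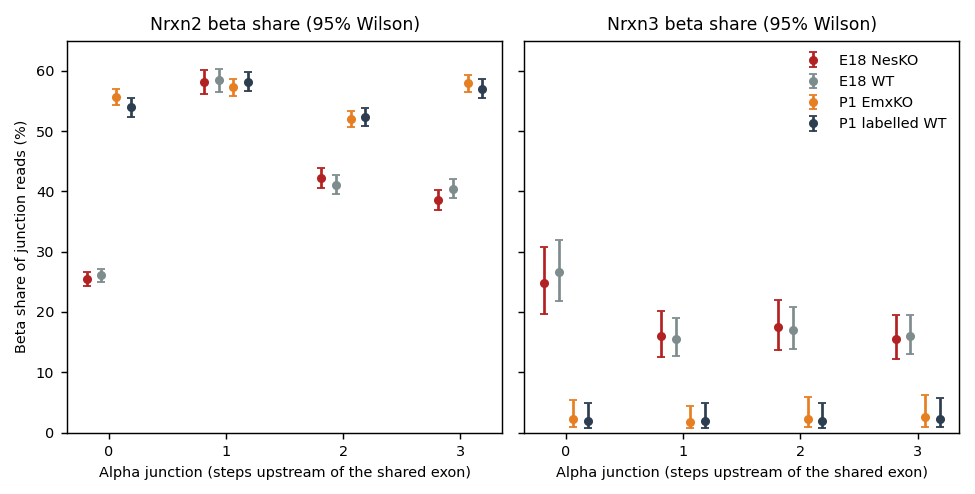
Share of reads from the beta first exon (vertical axis, percent of beta plus alpha reads, with 95% Wilson intervals) by the alpha junction counted (horizontal axis, 0 for the one into the shared exon and 1 to 3 for those upstream), for *Nrxn2* (left) and *Nrxn3* (right) in each library. The *Nrxn2* stages are apart at junction 0 (25.4% to 26.1% against 53.9% to 55.7%) and together at junction 1 (57.3% to 58.5%), while *Nrxn3* is lower in the P1 libraries at each junction.

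The amount of each gene's junction reads was compared as RPM over all distinct junctions, and in whole tissue fewer cells of a type cannot be told apart from less RNA per cell. *Nlgn1* had 5.02 RPM in the NesKO, 8.41 in the E18 wild type, 6.61 in the EmxKO and 14.1 in the P1 library labelled wild type. Both knockout libraries were thus below their controls, at ratios of 0.598 and 0.469, and the counting intervals of each pair were apart. Over all genes with at least 100 junction reads, 8.03% at E18 and 20.9% at P1 differed by 1.5-fold or more in either direction. The E18 ratio of *Nlgn1* lay above 2.04% of 11504 genes and the P1 ratio above 6.41% of 11450 genes. Of the *Nlgn1* junctions with 10 or more reads in both libraries, 5 of 6 at E18 and 10 of 10 at P1 had a lower RPM in the knockout. Some markers of neurons moved the same way: *Snap25* had 90.2 and 192.7 RPM at E18 and 64.3 and 126.9 RPM at P1 in knockout and control, and *Map2* had 274.6 and 392.0 at E18 and 369.5 and 638.4 at P1. *Tubb3*, another, had 965.0 and 994.2 at E18 and 1526 and 1213 at P1. *Gfap*, a marker of astrocytes, was the higher in the knockout, at 65.9 and 23.7 RPM at E18 and 28.8 and 12.3 RPM at P1. The sum of the 5 listed markers of radial glia and astrocytes, *Gfap* included, was lower in both knockouts. It was 858.1 and 943.2 RPM at E18 and 427.3 and 533.3 RPM at P1. The part of these markers in the *Nlgn1* levels was not tested.

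The other 4 genes stayed within 1.5-fold at both stages. *Nlgn2* had 174.6 and 148.1 RPM at E18 and 158.6 and 125.2 at P1, in knockout and control. *Nlgn3* had 98.3 and 111.3 at E18 and 44.4 and 34.3 at P1. *Nrxn2*, the most abundant by this count, had 784.2 and 811.0 at E18 and 584.5 and 427.3 at P1, and *Nrxn3* had 72.2 and 88.9 at E18 and 27.8 and 27.4 at P1. These sums follow the number of junctions in a gene, so levels are not compared between genes.

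**Figure D5:**
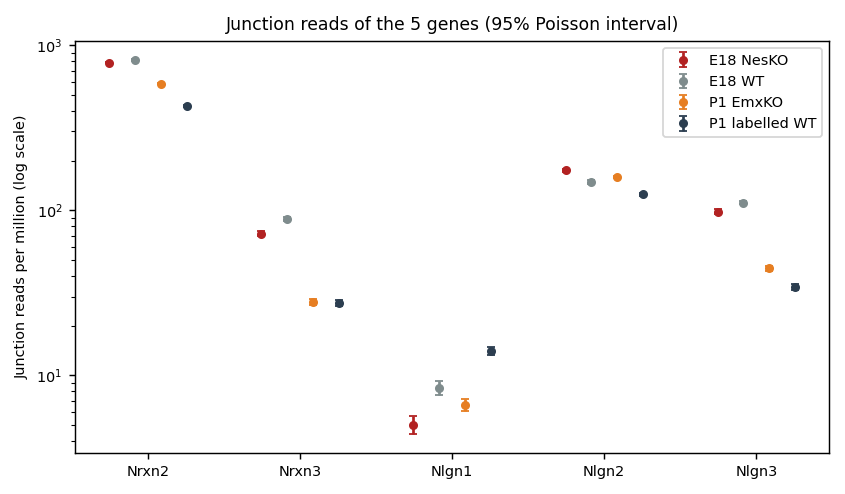
Junction reads in RPM (vertical axis, log scale) of the 5 genes in each library, with 95% Poisson intervals for counting error. *Nlgn1* is lower in the knockout library at both stages, 5.02 against 8.41 at E18 and 6.61 against 14.1 at P1.

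A list of 72 partner genes, synaptic binding partners, scaffolds, other adhesion proteins and RNA-binding proteins known to act on neurexin segments, gave the surroundings of these exons. Named trios were found for 61 of them. At E18, 22 of 828 tested exons differed by 10 points (9 higher and 13 lower in the NesKO, 2.66%), and at P1 14 of 831 (6 higher and 8 lower in the EmxKO, 1.68%), near the shares of all exons. With the adjusted p required, 2 of 828 remained at E18 and 5 of 831 at P1, beside 0.148% and 0.191% of all exons. These are 6 exons in 5 genes. The widest was a 102-nt exon of *Cadm3*, a nectin-like adhesion protein, at 32.2 in the NesKO, 66.4 in the E18 wild type, 32.1 in the EmxKO and 47.2 in the P1 library labelled wild type. *Adgrl2*, a latrophilin that binds teneurins, had a 45-nt exon at 52.5, 40.3, 57.1 and 37.2 and a 12-nt exon at 79.4, 72.2, 83.0 and 70.6, each higher in both knockouts. Both exons passed the adjusted p at P1 only, and the E18 difference of the 12-nt exon was 7.2 points.

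The remaining partner exons were in *Cadm1*, *Tenm3* and *Mdga1*. The 84-nt *Cadm1* exon was at 20.6 and 15.1 at E18 and at 38.9 and 54.7 at P1, in knockout and control. Its genotype effect differed between the stages, by a Wald chi-square test adjusted over all exons (adjusted p = 0.00208). A 279-nt exon of *Tenm3*, a teneurin, was at 64.5, 63.9, 38.6 and 21.8. By junction reads it was at 59.3, 65.1, 80.2 and 55.1, so the order of the stages depends on the measure. The EmxKO was above its control by both. An acceptor of *Mdga1*, whose protein binds neuroligins and blocks their contact with neurexins, was at 97.6 and 86.6 at E18 and 98.0 and 93.3 at P1.

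The exons whose 4 values lay nearest to those of the *Nlgn1* 77-nt exon, the member with the largest E18 difference by the deposited ratio among the named alternative exons, were found among 6464 cassette exons of other genes. They were in *Nckap5*, *Kcnk2*, *Cacul1*, *Prrc2c* and *Odf2*, with a largest difference over the 4 libraries of 2.0 to 4.9 points. Across the 63 neurexin and neuroligin exons tested at both stages, 0 genotype effects differed between E18 and P1 after adjustment over 125694 exons, and 3 did at an unadjusted p of 0.05.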

How the data were processed

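RNAseq of 1 library per group was analysed from the tables the authors deposited. They mapped 100-nt paired reads and estimated inclusion with SpliceTrap, and the labels' processing notes name the genome build mm9, CASAVA, TopHat and Cufflinks. Per the file headers, the deposited inclusion ratio is a fraction of transcripts with the middle exon, used after the program's correction and given in percent. The deposited junction reads are raw counts, and the same junction can have unequal counts in different trios, so each was taken once at its highest count in gene sums. Deposited coverage values were not used.

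The trio with the most junction reads stood for each exon, with at least 20 in both libraries. Junction-read PSI had Wilson intervals. Two-sided Fisher's exact tests were adjusted by Benjamini-Hochberg over all exons of a comparison, and the Wald test had 0.5 added to each count. Exons of the 5 genes that were labelled alternative or had a junction-read PSI under 95 in the trio used were named. Partner exons were named when past 10 points with an adjusted p below 0.05. The members and lists were chosen with earlier results of these data known. Scripts in Python 3.11.15 (numpy 2.4.6, pandas 2.3.3, scipy 1.17.1, matplotlib 3.10.9) were tested on simulated data. Positions of exons are mm9 as in the files, and sequences come from transcripts on GRCm38, joined by lengths with no conversion of coordinates. The alternatives tried were other PSI measures, read minimums, trios and call rules, and, chosen after the values were seen, single junctions for PSI and for the beta share. One segment's sequence is not reported here.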

Additional observations from a re-analysis of the deposited data

How the results depend on the processing

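Counts of exons depended mostly on the PSI measure and the call rule. With PSI from junction reads alone, the counts of neurexin and neuroligin exons past 10 points went from 4 to 1 at E18, from 2 to 1 at P1 and from 8 to 4 between the controls. With an adjusted p required as well they were 0, 1 and 3, with a 20-point limit 1, 0 and 4, and over cassette-labelled exons only 0, 0 and 1. Partner exons went from 22 at E18 and 14 at P1 to 2 and 5 with the adjusted p and to 5 and 2 at 20 points. Over cassette-labelled exons they were 7 of 71 and 5 of 70, beside 10.7% and 9.27% of all cassettes. The cause of the change of measure was not tested, while the stricter rules leave fewer exons by construction. The ratio before correction, minimums of 10, 50 or no reads and the trio with the most skipping reads kept each of these counts within 1.5 times. The *Nrxn2* 576-nt acceptor went from 13.8 to -8.29 points between the controls with junction reads. Over junctions away from alternative exons, the RPM ratio was 0.896 for *Nrxn2* at E18 (0.967 over all junctions) and 0.522 for *Nlgn1* at P1 (0.469). With the median over junctions, added after seeing the data, it was 1.03 for *Nrxn2* and 1.01 for *Nlgn3* (0.883) at E18. Among single exons, single inclusion junctions included (added after seeing the data), 157 of the alternative values stayed within the counting interval and 18 moved beyond it in the same direction or without a call. The beta share against other alpha junctions, also added then, changed sign for *Nrxn2* between the controls (27.9 to -0.24 points one junction upstream), where the cause was not tested. It also did so where the difference had not passed the threshold: for *Nrxn2* at E18 (-0.67 to 1.15) and P1 (1.74 to -0.97 and -0.36), and for *Nrxn3* at E18 (-1.86 to 0.38 and 0.40) and P1 (0.20 to -0.22). No paired analysis was possible because each group has 1 library. For the same reason no library could be left out. The median tested exon had 232 to 482 junction reads in a library, and 3 reads of that are 0.622% to 1.29%.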
